A study of Homo sapiens with 18 samples.

Results

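The 10 histone genes examined here are transcribed outside the replication-dependent clusters and were followed across every group of the series: H2AFX, H2AFZ, H2AFV, H2AFY, H2AFY2 and H2AFJ of the H2A family, H3F3A and H3F3B of the H3 family, and the linker histones H1F0 and H1FX. The rule lists them by name and uses no measured value, although it was drawn up with earlier results of these data known, and all 10 had a row in the count table of 20705 genes. RNA sequencing was performed on 2 human melanoma cell lines. CHL1 carries wild-type BRAF and NRAS and mutant p53 and was grown in DMEM, and A375 carries mutant BRAF and wild-type p53 and was grown in RPMI-1640. Cells received DMSO as control, 1 µM of the CDK4/6 inhibitor palbociclib (CDK4/6i) for 72 hours or 6 days, or 500 nM of the PRMT5 inhibitor GSK3326595 (PRMT5i) for 72 hours. The 18 libraries formed 9 groups of 2, so every mean below is over n = 2. CHL1 had only a 72-hour control, which also served as control for its 6-day treatment, whereas A375 had a control at each time. Nothing in the labels says that the replicates came from separate cultures, and the p-values therefore measure the spread between these libraries, which may be technical.

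Most core histones are made in S phase from intronless genes whose transcripts end in a conserved stem-loop and lack a poly(A) tail. Replacement variants are instead transcribed through the cell cycle from genes with polyadenylated transcripts, and dedicated chaperones place their proteins into chromatin independently of DNA synthesis. H2A.X is phosphorylated next to DNA breaks, H2A.Z marks the nucleosomes that flank promoters, the macroH2A proteins carry a large extra domain and are associated with silent chromatin, and loss of macroH2A has been linked to melanoma progression. CDK4/6 drives the entry into S phase through the retinoblastoma protein and E2F, and PRMT5 methylates arginines of histones and splicing factors.

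Library totals ranged from 16213475 to 37424081 counts, with a median of 27906170.5. In no group did the replicates agree within sampling noise (chi-square per degree of freedom from 7.6 to 118). The 6 A375 libraries of 72 hours belonged to a separately named library set, and the other 12 to a single set, so that A375 at 72 hours and the library set cannot be told apart. Before any result, 4 libraries stood apart in base composition. The level of GC-rich genes relative to GC-poor genes (log2, centred on each line) lay between -2.76 and -1.21 in both CHL1 PRMT5i libraries and both 6-day A375 controls, and between -0.39 and 0.62 in the other 14. Among melanocyte markers, MITF was present in both lines at 63.8 CPM or more and DCT reached 142 CPM in CHL1 but only 1.79 CPM in A375, while PMEL never exceeded 3.25 CPM. The leukocyte marker PTPRC was between 7.41 and 16.8 CPM in CHL1 and at most 0.588 CPM in A375, and it rose in CHL1 with 6-day CDK4/6i (1.16 ± 0.20 on the log2 scale, SE) and with PRMT5i (1.00 ± 0.20). In A375 CDK4/6i raised the keratinocyte marker KRT14 at 72 hours (from 1.82 ± 0.0503 to 7.10 ± 0.783 CPM, adjusted p = 0.0434) and S100B and PMEL at both times (by 1.33 to 1.65 on the log2 scale), and it lowered MITF at 6 days (-1.05 ± 0.19). The part of these markers in the results below was not tested.

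Sequence features of the genes are shown first, because they bear on how the transcripts were captured and counted. On GRCh37 the genes lie at chr11:118964584-118966175 (H2AFX), chr4:100869243-100871512 (H2AFZ), chr7:44866390-44887686 (H2AFV), chr5:134670071-134735604 (H2AFY), chr10:71812300-71872038 (H2AFY2), chr12:14927339-14930936 (H2AFJ), chr1:226249552-226259720 (H3F3A), chr17:73772515-73781974 (H3F3B), chr22:38201236-38203439 (H1F0) and chr3:129033614-129035129 (H1FX). H2AFX is the only member whose annotated transcripts hold the consensus histone stem-loop. The same search found it in 51 of the 59 replication-dependent histone genes with a matched transcript (86.4%) and in 54 of all 16190 matched genes (0.334%). The H2AFX site lies in the 3′ untranslated part of its single exon, at chr11:118965608-118965623 on the minus strand, and 1024 bases of transcript follow it. As background, H2AFX is known to give both a short stem-loop transcript and a longer polyadenylated one, and only the second is captured by poly(A) selection. The site is shown with 7 bases on each side, chr11:118965601-118965630 of GRCh37, with the stem-loop in capitals.
H2AFX stem-loop: ccacaaaGGCCCTTTTAAGGGCCaccaccg

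Upstream sequence is shown for the 4 genes that fell together in A375 under CDK4/6i and whose windows hold several CCAAT words. Also shown are H1FX and H2AFY2, which had the largest fall and largest called rise against a control and whose windows hold none. Because both features guided the choice, a link between the words and the fall cannot be read from it and was not tested. H2AFJ, with 3 such words, is not shown and was not called in A375 under CDK4/6i (0.46 ± 0.28 at 72 hours and 0.36 ± 0.27 at 6 days, log2, SE). RefSeq gave 300-base start-site windows (250 bases before to 50 after the start, GRCh38.p14) for 9 of the 10 members, H1F0 being the exception. CCAAT on either strand occurred at least 3 times in the windows of H2AFX (4), H2AFV (4), H3F3B (4), H2AFZ (3) and H2AFJ (3), and 3.26% of all 35116 windows reach 3. The word TTTGAA of the cell cycle homology region (CHR) was found in H2AFX at position -164 and in H2AFZ at position 5, just past the stretch shown, as in 15.2% of all windows. TATAAA was present at -31 in H2AFX, H2AFZ and H1FX and at -29 in H3F3B (11.5% of all windows). None of the E2F words TTTCCCGC, TTTCGCGC, TTTGCCGC and TTTGGCGC occurred in a member's window, against 3.31% of all windows. No match overlapped another. Below are the 250 bases before the start, 5′ to 3′, with the CCAAT words and the CHR word, on either strand, in capitals.
H2AFX, chr11:119095466-119095715 (minus strand): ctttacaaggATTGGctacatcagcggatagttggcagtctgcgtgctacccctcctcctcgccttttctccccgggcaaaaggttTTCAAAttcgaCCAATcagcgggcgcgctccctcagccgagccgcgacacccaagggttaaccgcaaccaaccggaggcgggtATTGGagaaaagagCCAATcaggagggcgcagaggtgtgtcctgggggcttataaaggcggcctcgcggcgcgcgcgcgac
H2AFZ, chr4:99950276-99950525 (minus strand): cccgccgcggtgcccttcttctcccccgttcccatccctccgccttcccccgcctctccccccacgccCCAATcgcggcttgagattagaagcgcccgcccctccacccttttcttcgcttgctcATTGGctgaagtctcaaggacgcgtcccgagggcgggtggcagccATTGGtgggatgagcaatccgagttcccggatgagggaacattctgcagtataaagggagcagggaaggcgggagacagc
H2AFV, chr7:44848088-44848337 (minus strand): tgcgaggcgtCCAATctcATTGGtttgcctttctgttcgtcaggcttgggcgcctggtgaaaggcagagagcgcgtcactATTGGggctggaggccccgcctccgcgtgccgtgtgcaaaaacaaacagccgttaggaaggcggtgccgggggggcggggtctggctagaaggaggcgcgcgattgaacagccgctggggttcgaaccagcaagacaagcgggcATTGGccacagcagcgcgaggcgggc
H3F3B, chr17:75779780-75780029 (minus strand): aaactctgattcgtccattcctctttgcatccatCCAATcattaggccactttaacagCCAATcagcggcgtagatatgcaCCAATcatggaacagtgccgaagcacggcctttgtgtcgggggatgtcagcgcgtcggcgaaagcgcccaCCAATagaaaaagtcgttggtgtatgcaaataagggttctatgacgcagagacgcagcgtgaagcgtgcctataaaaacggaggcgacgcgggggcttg
H1FX, chr3:129316287-129316536 (minus strand): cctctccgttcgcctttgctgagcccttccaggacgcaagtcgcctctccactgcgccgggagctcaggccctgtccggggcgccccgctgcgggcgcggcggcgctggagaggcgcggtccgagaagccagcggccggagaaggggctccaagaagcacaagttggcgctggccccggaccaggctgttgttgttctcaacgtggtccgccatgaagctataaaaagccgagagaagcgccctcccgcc
H2AFY2, chr10:70052596-70052845 (plus strand): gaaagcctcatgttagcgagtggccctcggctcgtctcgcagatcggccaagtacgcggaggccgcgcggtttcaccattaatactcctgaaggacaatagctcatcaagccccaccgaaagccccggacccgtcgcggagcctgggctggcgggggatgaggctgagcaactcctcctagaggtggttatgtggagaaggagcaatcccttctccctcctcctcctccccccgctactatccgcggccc

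Reads of H3F3A are hard to place. When 150-base stretches of the canonical transcripts were aligned to GRCh37, 82.8% of those from H3F3A fitted equally well elsewhere, compared with 13.9% for H2AFZ, 5.56% for H2AFV, 4.69% for H3F3B and 0% for the other 6 genes. How the counting treated such reads decides how many H3F3A reads were kept. The study's methods give default settings for the counting tool HTSeq, and how many such reads these kept was not examined here. Strandedness of the library kit is not given in the sources used here, and H1FX (345 bases of overlap with H1FX-AS1), H2AFY (with C5orf66), H2AFY2 (with AIFM2) and H3F3B (with UNK) share bases with a gene on the other strand. H1FX-AS1 stayed between 0.469 and 3.43 CPM, C5orf66 between 2.49 and 16.2, UNK between 32.2 and 91.4 and AIFM2 between 9.86 and 62.5.

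In untreated cells, the H2A.Z gene H2AFZ and H2AFX gave the highest levels per length of all exons, an order that changed with the length used. Scaled counts (CPM, on TMM-adjusted totals) divided by the length of all exons put H2AFZ at 127 ± 10.3 per kilobase (SD) in CHL1 controls, H2AFX at 74.9 ± 4.29 and H2AFV at 51.4 ± 6.41, and the last overlapped H3F3B at 44.7 ± 5.45. H2AFY2 and H2AFJ were lowest in CHL1, at 0.0419 ± 0.00913 and 0.111 ± 0.0392 per kilobase. In A375 controls at 72 hours H2AFX was first, at 96.01 and 121 per kilobase, and overlapped H2AFZ at 72.2 and 103 per kilobase, H1F0 followed at 65.8 ± 7.99, and H2AFJ and H2AFY2 were again at the end. With the longest transcript H2AFZ stayed first in CHL1, H3F3B was second there, and in A375 H3F3B, H2AFX and H2AFZ overlapped at means of 109.7, 108.7 and 105.6 per kilobase. With the canonical transcript, an alternative added after the data were seen, H2AFZ was first in both lines and H2AFX was at rank 4 in CHL1 and rank 3 in A375.

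Several variants differed in level between the cell lines before treatment, as did most genes. Between the 72-hour controls 7 members differed (58.9% of all genes did): H2AFY2, H2AFJ, H1F0 and H1FX were higher in A375 and H2AFZ, H2AFV and H3F3A were lower (edgeR, adjusted p below 0.05 throughout). H2AFJ, whose protein accumulates in senescent cells, had 0.276 and 0.461 CPM in the CHL1 controls and 3.43 and 4.54 CPM in the A375 controls, a difference of 3.42 ± 0.36 (log2, SE). H2AFY2 had 0.725 and 0.532 CPM in CHL1 and 4.92 and 5.38 CPM in A375, a difference of 3.02 ± 0.28. H1F0 was 1.70 ± 0.20 and H1FX 1.27 ± 0.28 higher in A375 on the same log2 scale. The differences were -0.99 ± 0.19 for H2AFV, -0.83 ± 0.25 for H3F3A and -0.54 ± 0.20 for H2AFZ. The H2AFZ difference was no longer called without CHL1 control replicate 1 (-0.48, adjusted p = 0.128) or A375 control replicate 1 (-0.28, adjusted p = 0.35), nor was that of H3F3A without A375 control replicate 1 (adjusted p = 0.0583). With the GC correction H2AFZ was again lost (-0.39, adjusted p = 0.0621), and H2AFX (0.41) and H2AFY (0.28) were called higher in A375 (66.5% of all genes called). Line, medium and library set cannot be told apart here.

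**Figure D1:**
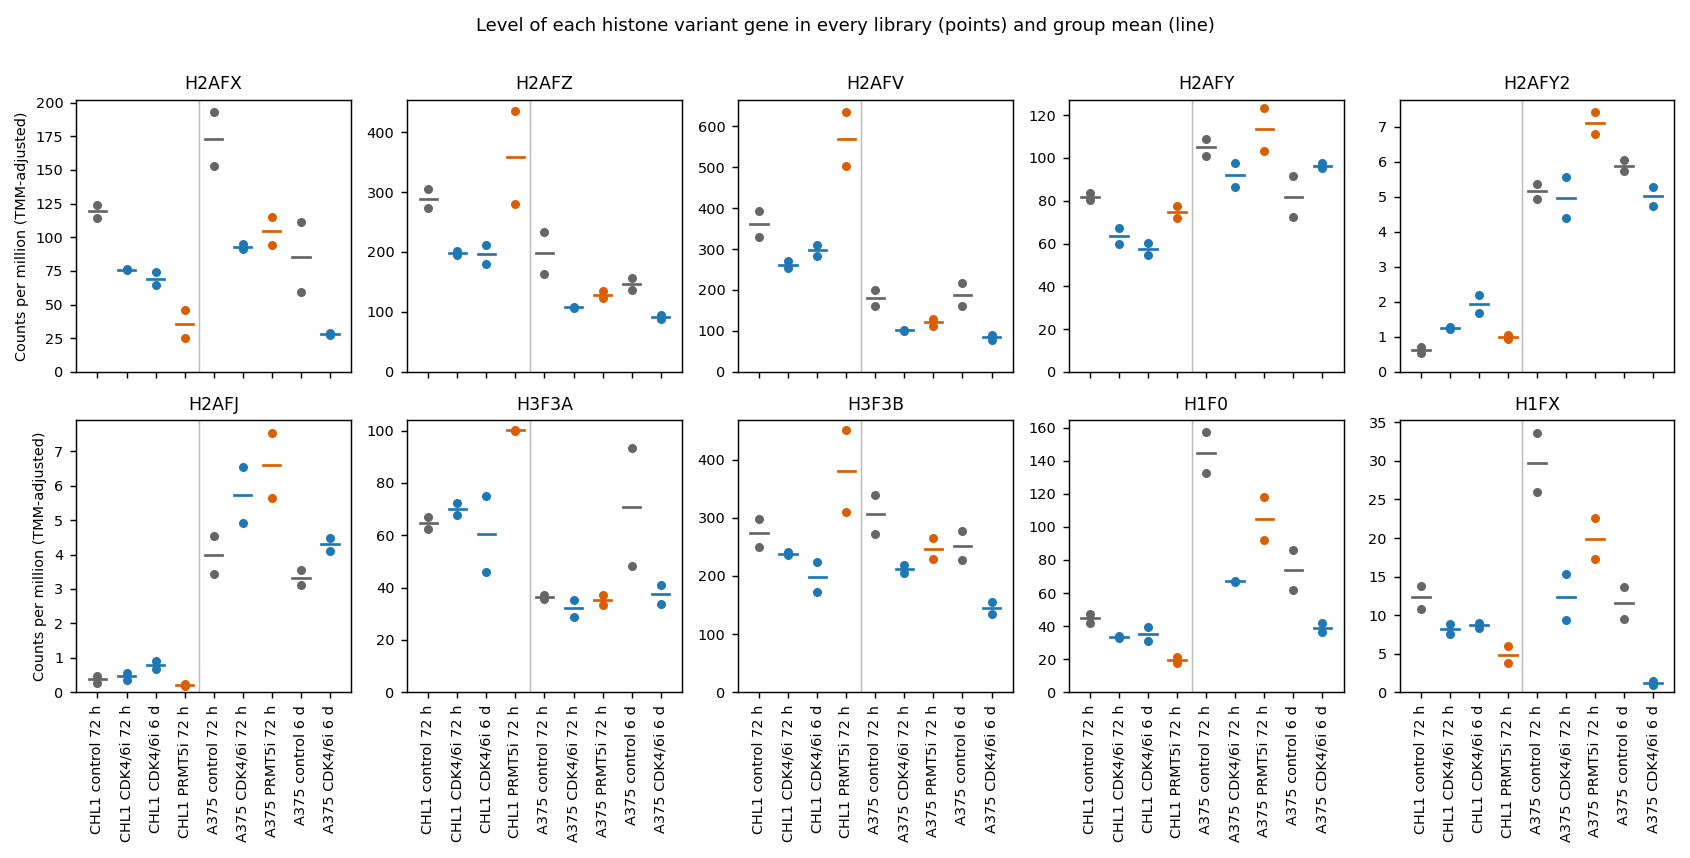
CPM of each gene (vertical axis, linear, starting at 0 and scaled per gene) in every library, by group on the horizontal axis; points are libraries, lines are means of 2, grey is control, blue CDK4/6i and orange PRMT5i. H2AFX, H1F0 and H1FX lie lowest in CHL1 under PRMT5i and in A375 after 6 days of CDK4/6i, while H2AFZ, H2AFV and H3F3B have their highest mean under PRMT5i in CHL1.

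CDK4/6i lowered most of these genes in A375. After 72 hours 6 of the 10 members were down-regulated and none up-regulated (13.3% of all genes were called, 7.11% lower and 6.22% higher), and after 6 days 7 were down-regulated and none up-regulated (43.1% of all genes, 21.3% lower and 21.8% higher). The median log2 fold change of the 10 was -0.74 at 72 hours and -0.86 at 6 days, while that of all genes was 0.00 and 0.10. In CHL1 no member was called at 72 hours (4.98% of all genes were), although 7 had an unadjusted p below 0.05 in the edgeR quasi-likelihood test (20.1% of all genes did) and DESeq2 also called 0. At 6 days 3 members were called in CHL1 (16.6% of all genes), H2AFX and H2AFY lower (7.8% of all genes) and H2AFY2 higher (8.83%). PRMT5i changed 5 members in CHL1, 2 up-regulated and 3 down-regulated (54% of all genes called, 26.4% higher and 27.6% lower), and 0 in A375 (2.61% called), where 6 had an unadjusted p below 0.05 (16.1% of all genes) and DESeq2 called 0. Some members were called lower under PRMT5i in A375 once either 6-day A375 control was left out. The same held at 72 hours of CDK4/6i in CHL1 once either CHL1 PRMT5i library was left out. These libraries lie outside the 2 comparisons but share their estimate of spread. The share of all genes called without them is not given here. In other comparisons leaving out 1 library lost calls, as given in the closing section. When the fit held just the 4 libraries being compared, 7 members were called at 72 hours of CDK4/6i in CHL1 (20.3% of all genes), 6 lower and H2AFY2 higher, and H2AFX, H2AFZ and H2AFV were called lower under PRMT5i in A375 (8.99% of all genes). Because these are bulk samples, fewer cells of a type and less RNA per cell cannot be told apart.

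**Figure D2:**
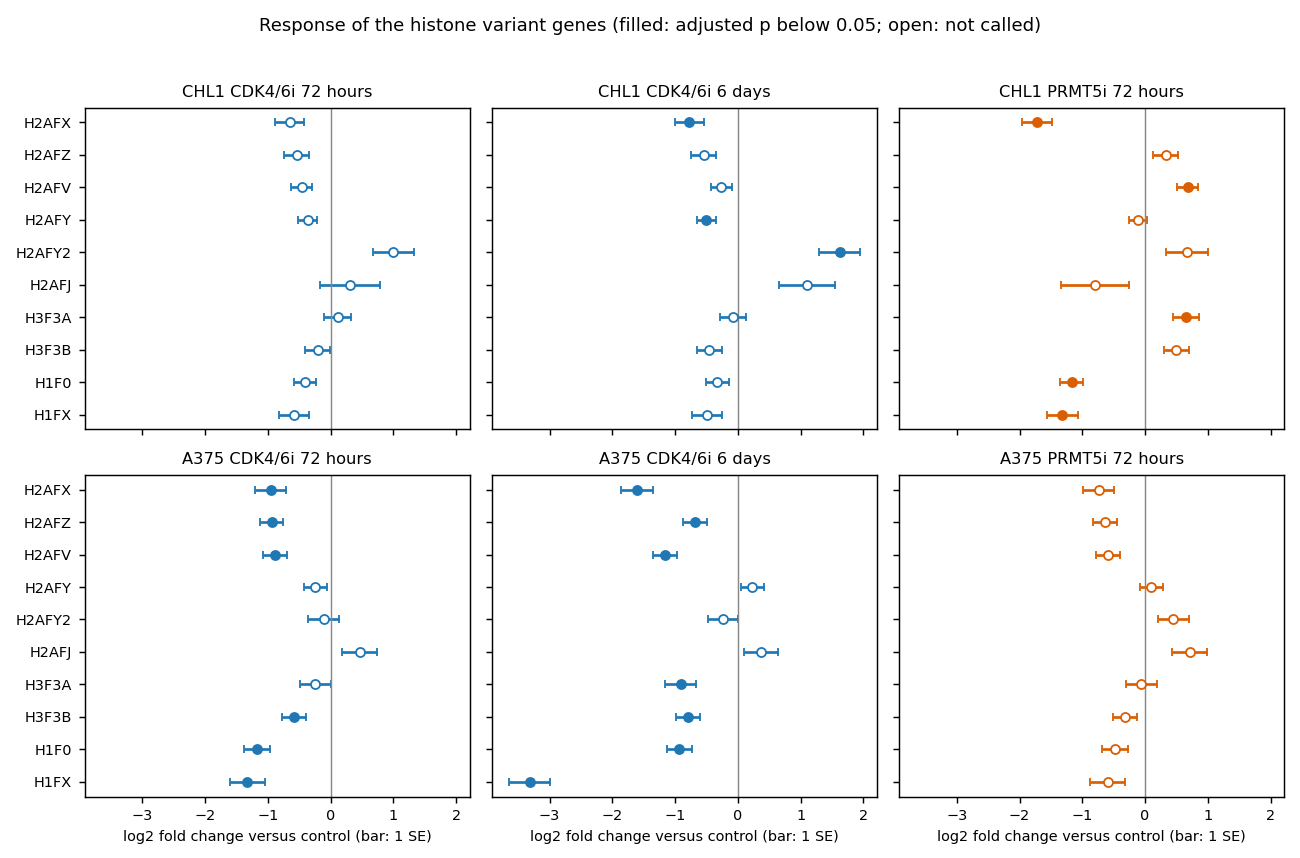
Log2 fold change against the matching control (horizontal axis, bar 1 SE) for each gene (vertical axis) in the 6 comparisons; filled circles passed an adjusted p of 0.05 and open circles did not. In both A375 CDK4/6i panels every filled circle lies left of 0, and in the CHL1 PRMT5i panel the filled circles lie on both sides.

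H2AFX, the variant phosphorylated at DNA breaks, had lower CPM in every treated library than in either matching control, in all 6 comparisons. Such a lack of overlap was common among all genes, at 58.1%, 60.8% and 75.8% for CDK4/6i at 72 hours, CDK4/6i at 6 days and PRMT5i in CHL1 and 66.3%, 68% and 53.1% in A375. CHL1 controls had 124 and 114 CPM, compared with 76.2 and 75.6 after 72 hours of CDK4/6i, 73.9 and 64.2 after 6 days, and 25.5 and 46.0 under PRMT5i. A375 controls at 72 hours had 153 and 193 CPM, against 91.1 and 94.6 with CDK4/6i and 94.2 and 115 with PRMT5i. At 6 days the A375 controls had 59.0 and 111 CPM and the treated libraries 29.2 and 27.4. Of the 6 differences 4 were called: -0.77 ± 0.23 for 6-day CDK4/6i in CHL1 (log2, SE, edgeR adjusted p = 0.0397), -1.72 ± 0.24 for PRMT5i in CHL1 (adjusted p = 0.00017), -0.96 ± 0.25 for 72-hour CDK4/6i in A375 (adjusted p = 0.0186) and -1.60 ± 0.25 for 6-day CDK4/6i in A375 (adjusted p = 0.000202). The remaining values were -0.65 ± 0.23 in CHL1 at 72 hours and -0.74 ± 0.25 for PRMT5i in A375. Its 72-hour A375 call was lost without A375 control replicate 2 (adjusted p = 0.178) or either CDK4/6i library (0.142 and 0.119), and its 6-day CHL1 call without either control (0.188 and 0.147), either 6-day library (0.0814 and 0.19) or CDK4/6i 72-hour replicate 2 (0.0663). With a correction for GC content, the CHL1 PRMT5i value became -0.30 (adjusted p = 0.095).

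H2AFZ and H2AFV encode the near-identical forms of H2A.Z, and both fell in A375 under CDK4/6i. In A375 controls at 72 hours H2AFZ had 164 and 233 CPM and with CDK4/6i 106 and 109, a log2 change of -0.94 ± 0.19 (edgeR adjusted p = 0.00402). H2AFV had 161 and 201 CPM in the same controls and 103 and 101 with CDK4/6i, a change of -0.89 ± 0.19 (adjusted p = 0.00606). Treated and control libraries did not overlap for either gene, as for 66.3% of all genes. At 6 days H2AFZ went from 157 and 136 to 95.2 and 87.8 CPM (-0.68 ± 0.19, adjusted p = 0.0092), and H2AFV from 216 and 161 to 90.7 and 78.6 CPM (-1.16 ± 0.19, adjusted p = 0.000282). Without A375 control replicate 2 or either CDK4/6i library, the 72-hour calls of both were lost (adjusted p from 0.0583 to 0.126), as was the 6-day call of H2AFZ without 6-day CDK4/6i replicate 2 (adjusted p = 0.0743) or with only the 6-day groups in the fit (0.0697).

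CHL1 gave a different picture for H2A.Z under the PRMT5 inhibitor. H2AFV rose from 392 and 328 CPM in controls to 635 and 502 CPM under PRMT5i, a log2 change of 0.68 ± 0.17 (edgeR adjusted p = 0.00471). H2AFZ had 306 and 273 CPM in controls and 436 and 280 under PRMT5i, which is 0.33 ± 0.20 and was called only without PRMT5i replicate 2 (0.61, adjusted p = 0.0107). Under CDK4/6i the CHL1 values of both genes were below the controls in every library, without a call. At 72 hours they were 196 and 202 CPM for H2AFZ and 270 and 253 CPM for H2AFV. Groups did not overlap in 58.1% of all genes at 72 hours and 60.8% at 6 days. In A375 PRMT5i gave -0.64 ± 0.19 for H2AFZ and -0.59 ± 0.19 for H2AFV, not called (adjusted p = 0.0892 and 0.118). The response to PRMT5i differed between the lines for both genes when tested directly, by -0.93 ± 0.29 for H2AFZ (adjusted p = 0.0139) and -1.24 ± 0.26 for H2AFV (adjusted p = 0.00137), A375 minus CHL1. With the GC correction H2AFV in CHL1 was at 0.20 (adjusted p = 0.314), and without CHL1 control replicate 2 its adjusted p was 0.0707.

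Of the macroH2A genes, H2AFY fell and H2AFY2 rose after 6 days of CDK4/6i in CHL1. H2AFY had 83.8 and 80.2 CPM in CHL1 controls and 54.6 and 60.2 after 6 days of CDK4/6i (-0.50 ± 0.15, edgeR adjusted p = 0.0401). In the 5 other comparisons its log2 fold change lay between -0.37 and 0.23 and was not called. H2AFY2, counted in CHL1 with few reads, went from 0.725 and 0.532 CPM in controls to 1.23 and 1.29 at 72 hours and 1.68 and 2.19 at 6 days. All treated libraries lay above both controls. Such a lack of overlap held for 58.1% of all genes at 72 hours and 60.8% at 6 days. The 6-day change of 1.62 ± 0.32 was called (adjusted p = 0.00645), while that at 72 hours of 1.00 ± 0.33 was not (adjusted p = 0.107). In A375, where the gene started from 4.92 and 5.38 CPM, it was at 4.38 and 5.56 CPM at 72 hours of CDK4/6i, overlapping the controls, and at 4.73 and 5.29 CPM at 6 days, against 6.04 and 5.73 in the 6-day controls (-0.24 ± 0.24, not called). The 6-day responses of the lines differed by -1.84 ± 0.38 for H2AFY2 (adjusted p = 0.00259) and by 0.75 ± 0.23 for H2AFY (adjusted p = 0.0254), A375 minus CHL1. The CHL1 call for H2AFY was lost without any 1 of the 6 control and CDK4/6i libraries (adjusted p from 0.0633 to 0.216), and that for H2AFY2 without CHL1 control replicate 2 (0.0915). AIFM2, on the other strand of H2AFY2, had more reads than it in CHL1, with 62.5 and 56.9 CPM in controls and 46.0 and 48.9 at 6 days (-0.32 ± 0.18, not called), and its part in the H2AFY2 values was not tested.

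H2AFJ gave no call against a control in either line. CHL1 libraries held only 5 to 19 reads of it, too few for a small change to be detectable at this depth. In A375 it had 3.43 and 4.54 CPM in 72-hour controls, 6.55 and 4.91 with CDK4/6i and 5.65 and 7.53 with PRMT5i. Both treated groups lay above the controls. Groups did not overlap in 66.3% of all genes with CDK4/6i and 53.1% with PRMT5i. The corresponding log2 changes were 0.46 ± 0.28 and 0.71 ± 0.28 (edgeR adjusted p = 0.305 and 0.211).

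H3F3A and H3F3B encode the same H3.3 protein, which HIRA places in active genes and ATRX with DAXX at repeats. H3F3B, the more abundant transcript, fell in A375 from 272 and 340 CPM to 205 and 219 at 72 hours of CDK4/6i (-0.59 ± 0.19, edgeR adjusted p = 0.0493) and from 276 and 227 to 156 and 134 CPM at 6 days (-0.80 ± 0.19, adjusted p = 0.00343). The first of these lies at the threshold and was lost with median-of-ratios scaling (adjusted p = 0.0751), with all 18 libraries in the fit (0.083) and without 8 of the 10 A375 libraries in turn, all but the 6-day controls (adjusted p from 0.0644 to 0.4). In CHL1 H3F3B was at 298 and 250 CPM in controls, 240 and 236 at 72 hours, 224 and 172 at 6 days, and 452 and 311 with PRMT5i (0.50 ± 0.20, adjusted p = 0.0565). With DESeq2 this last value was called (0.55, adjusted p = 0.0307).

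H3F3A followed H3F3B only in part, with the limit that most stretches of its transcript are ambiguous. Under PRMT5i in CHL1 it rose from 67.0 and 62.4 CPM to 99.8 and 100.3 (0.65 ± 0.21, edgeR adjusted p = 0.0201), a call lost without either control (0.0725 and 0.113) and with the GC correction (0.11, adjusted p = 0.689). In A375 it was 35.7 and 37.2 CPM at 72 hours in controls and 35.2 and 28.9 with CDK4/6i. The 6-day A375 controls were far apart, at 93.5 and 48.2 CPM, and the treated libraries had 41.1 and 33.8 (-0.91 ± 0.24, adjusted p = 0.0068). Control replicate 1 decides much of that size: without it the change was -0.40 and was not called. Against the 72-hour control the 6-day change was -0.004 (adjusted p = 0.998). That control differs from the treated libraries in time and in library set. The call was also lost without 6-day CDK4/6i replicate 2 (adjusted p = 0.0735).

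Both linker histones fell under CDK4/6i in A375 and under PRMT5i in CHL1. H1F0, whose protein is known to accumulate in resting and differentiated cells, had 133 and 158 CPM in 72-hour A375 controls and 67.2 and 67.0 with CDK4/6i (-1.17 ± 0.20, edgeR adjusted p = 0.00145). At 6 days it went from 62.0 and 86.0 to 36.1 and 41.8 CPM (-0.93 ± 0.20, adjusted p = 0.00196). In CHL1 it was 47.2 and 42.0 CPM in controls and 17.8 and 21.3 with PRMT5i (-1.17 ± 0.18, adjusted p = 0.000307), compared with 33.0 and 34.2 at 72 hours and 39.3 and 31.0 at 6 days of CDK4/6i, which were not called. All 3 calls held when any 1 library was left out, and the CHL1 one held with the GC correction (-0.67, adjusted p = 0.00599). Its log2 fold change was below 0 in all 6 comparisons with a control.

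H1FX had the largest fold change of the 10 genes between treated and control cells. Controls of A375 at 6 days had 9.44 and 13.7 CPM and the CDK4/6i libraries 0.929 and 1.39 (34 counts in the lower), a change of -3.32 ± 0.32 (edgeR adjusted p = 5.35e-06), at percentile 0.4 of all genes. At 72 hours it had 26.0 and 33.6 CPM in controls and 9.35 and 15.4 with CDK4/6i (-1.33 ± 0.28, adjusted p = 0.00559). The response at 6 days minus that at 72 hours was -1.99 ± 0.42 when tested directly (adjusted p = 0.0343), the only member with a call in that test (1.08% of all genes were called). It was lost without 7 of the 10 A375 libraries in turn, all but the 6-day controls and CDK4/6i 72-hour replicate 1 (adjusted p from 0.0619 to 0.188). In CHL1 H1FX went from 13.8 and 10.8 CPM to 3.76 and 5.99 under PRMT5i (-1.32 ± 0.25, adjusted p = 0.000842) and to 9.00 and 8.35 after 6 days of CDK4/6i, not called (-0.49 ± 0.24). The 6-day response differed between the lines by -2.80 ± 0.43 (adjusted p = 0.000351). With the GC correction the CHL1 PRMT5i value turned to 0.18 (adjusted p = 0.502), while the 6-day A375 value was -3.71. The 72-hour call was lost without A375 control replicate 2 (0.0831) or CDK4/6i replicate 1 (0.116). The antisense gene H1FX-AS1 was also lower at 6 days of CDK4/6i in A375 (-0.97 ± 0.34, adjusted p = 0.0313) and under PRMT5i in CHL1 (-1.35 ± 0.34, adjusted p = 0.00529), and its part in the H1FX values was not tested.

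GC content moved with the PRMT5i results in CHL1. Across 13574 genes the log2 fold change there fell with transcript GC content (Spearman's rho = -0.824, a description across genes), and in A375 at 6 days it rose (rho = 0.593), while rho lay between 0.097 and 0.288 in the other 4 comparisons with a control. The members down-regulated by PRMT5i in CHL1 have GC contents of 66.8% (H2AFX), 68.6% (H1FX) and 52.0% (H1F0), and the up-regulated H2AFV and H3F3A have 43.4% and 42.8%. After correction with a loess curve of each library on GC content, PRMT5i in CHL1 called 2 members, H1F0 lower and H2AFY2 higher (28.5% of all genes called), in place of 6 without correction on the same genes (60.8%). PRMT5i in CHL1 and its GC trend cannot be told apart with these libraries. For CDK4/6i in A375 the correction kept the 6 calls of 72 hours (24.9% of all genes called, from 15.9%) and the 7 of 6 days (38% from 47.3%) and added H2AFY2 at 6 days (-0.65, adjusted p = 0.0263).

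**Figure D3:**
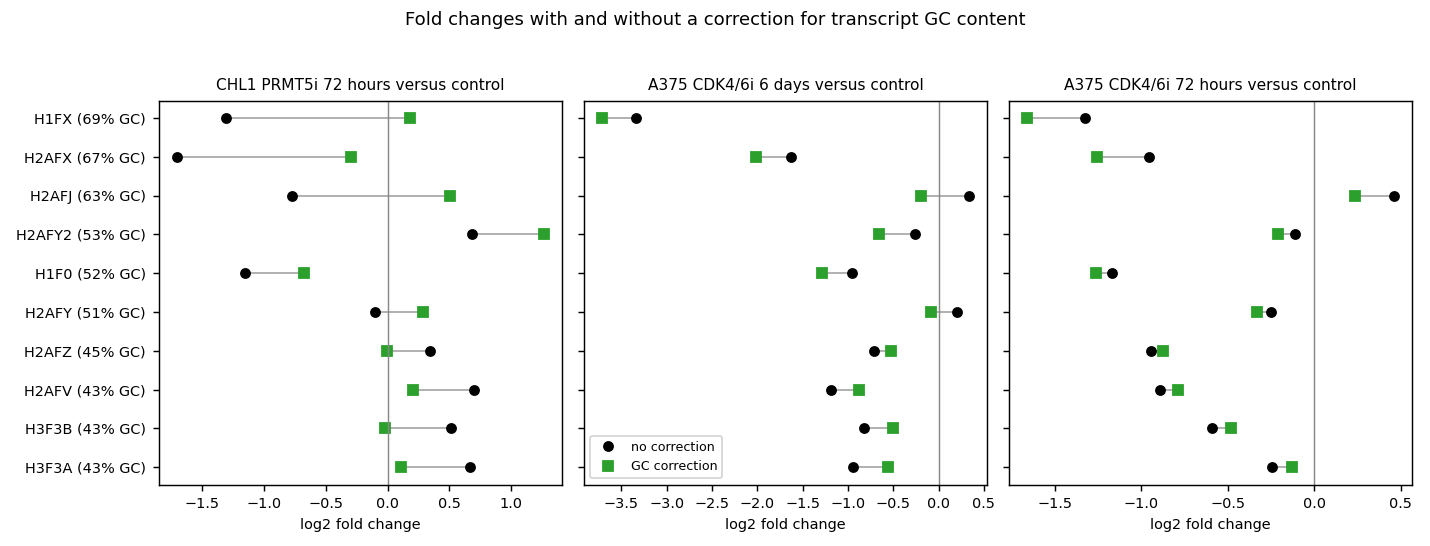
Log2 fold change (horizontal axis) of each gene (vertical axis, ordered by GC content of its canonical transcript) on the genes with a GC value, before (black circle) and after (green square) the correction. Under PRMT5i in CHL1 the GC-rich H1FX moves from the left of 0 to the right and H2AFX moves towards 0, whereas the CDK4/6i values of H2AFX, H1F0 and H1FX in A375 stay left of -0.5.

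Set directly against each other at 72 hours in CHL1, PRMT5i gave lower H2AFX, H1F0 and H1FX and higher H2AFZ, H2AFV, H3F3A and H3F3B than CDK4/6i, 7 of 10 members (57.8% of all genes were called). The largest of the called differences were 1.14 ± 0.17 for H2AFV and -1.06 ± 0.23 for H2AFX (log2, SE, edgeR adjusted p = 0.000148 and 0.00188). With the GC correction H2AFX turned to 0.61, H1FX to 1.06 and H3F3A to -0.09, and 4 members were called, none lower (41.5% of all genes called). The calls of H1F0 (-0.26, adjusted p = 0.177), H2AFZ (0.052), H3F3A and H3F3B were lost and that of H2AFV held. Fewer members were called without CDK4/6i replicate 1 or PRMT5i replicate 1, and the share of all genes called then is not given here. In A375 the same contrast called 0 members (5.45% of all genes), and every member's value was above 0, from 0.18 to 0.73, with 3 at an unadjusted p below 0.05 (20.7% of all genes). DESeq2 called 1, H1F0 (0.68, adjusted p = 0.0341). Between 6 days and 72 hours of CDK4/6i in CHL1 0 members were called (0.0145% of all genes) and 0 had an unadjusted p below 0.05 (7.89% of all genes did), and DESeq2 also called 0.

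The responses of the lines were compared directly for each treatment. For 72-hour CDK4/6i, 0 members differed in response (0.642% of all genes were called, 2 members and 10% of all genes had an unadjusted p below 0.05, and DESeq2 called 0), with H2AFY2 at -1.05 ± 0.39 and H1F0 at -0.70 ± 0.27 (A375 minus CHL1). For PRMT5i 6 members differed (40.9% of all genes): H2AFX, H2AFJ and H1F0 had the higher response in A375 and H2AFZ, H2AFV and H3F3B the lower. With the GC correction 1 of these was called, H2AFV. For 6-day CDK4/6i 4 members differed (21.9% of all genes), H2AFV, H2AFY2 and H1FX with the lower response in A375 and H2AFY with the higher. Here CHL1 was set against its 72-hour control and A375 against its 6-day control, so line and time of the control cannot be told apart.

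Within each pair of related genes the balance shifted in a few groups. H2AFY made up 99.24% ± 0.141 (SD) of H2AFY and H2AFY2 reads in CHL1 controls, 98.04% ± 0.221 after 72 hours and 96.75% ± 0.381 after 6 days of CDK4/6i, with no overlap between these groups. H1F0 supplied 86.55% ± 0.353 of H1F0 and H1FX reads in 6-day A375 controls and 97.14% ± 0.502 after 6 days of CDK4/6i. H2AFZ held 52.1% ± 2.23 of H2A.Z reads in 72-hour A375 controls and 51.4% ± 0.831 with CDK4/6i, whereas at 6 days its share was 43.9% ± 2.63 in controls and 52.0% ± 1.11 with CDK4/6i, without overlap. In CHL1 its share was 44.6% ± 1.09 in controls and 38.2% ± 3.47 with PRMT5i. The 6-day A375 controls and the CHL1 PRMT5i libraries are those that stood apart in base composition. Over all libraries the GC trend had r of -0.49 with H2AFZ and -0.708 with H2AFV. Its part in the shares was not tested. The H3F3B share of H3.3 reads ranged from 76.9% ± 2.90 in CHL1 after 6 days of CDK4/6i to 89.3% ± 1.21 in 72-hour A375 controls and depends on how ambiguous H3F3A reads were counted. Shares rest on read counts and were not tested.

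**Figure D4:**
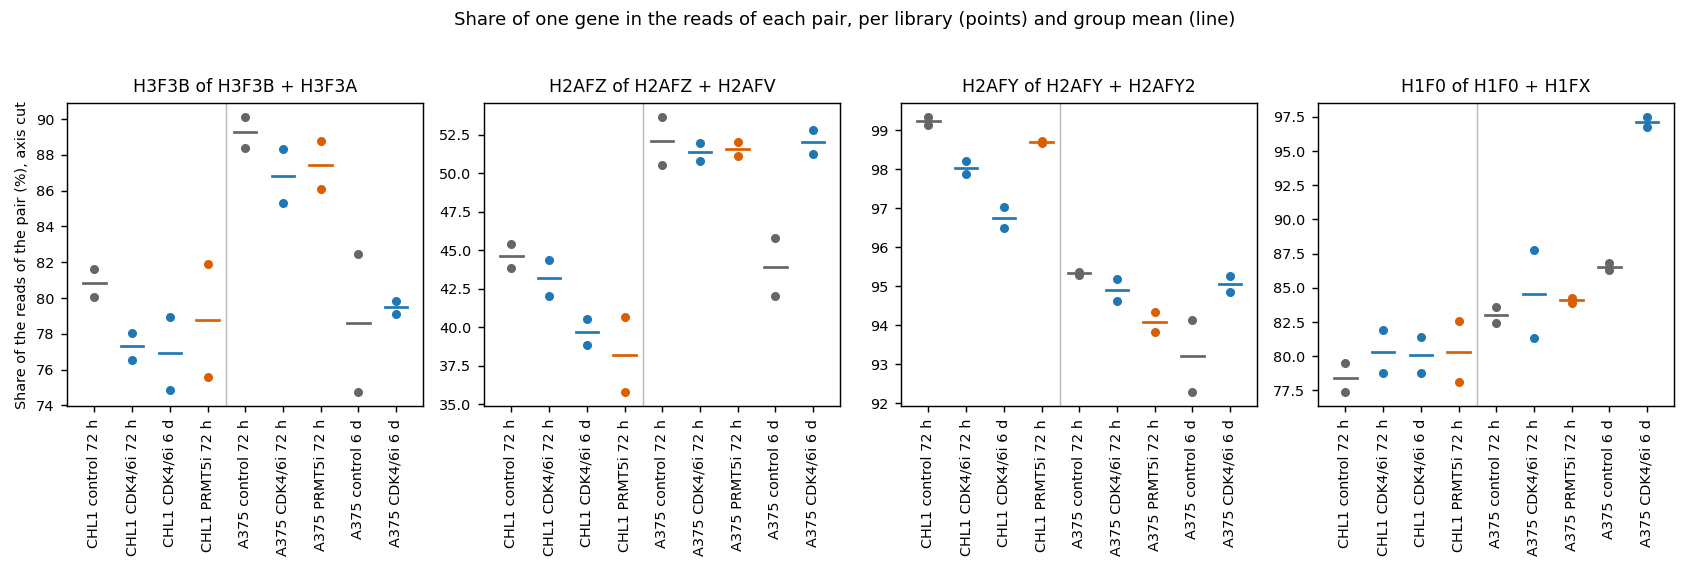
Share of the first-named gene in the summed reads of each pair, in percent (vertical axes cut and scaled per pair), for every library by group; points are libraries, lines means of 2, grey is control, blue CDK4/6i and orange PRMT5i. The H2AFY share falls stepwise from control through 72 hours to 6 days of CDK4/6i in CHL1, and the H1F0 share is highest in A375 after 6 days of CDK4/6i.

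Genes that handle these variants were counted from lists of known factors. The shares of all genes called, to be set beside every count that follows, were 13.3% and 43.1% for A375 at 72 hours and 6 days of CDK4/6i, 4.98% and 16.6% for CHL1, and 54% and 2.61% for PRMT5i in CHL1 and A375. List genes are given without the GC correction. The 6-day A375 comparison carried a GC trend (rho = 0.593), as did PRMT5i in CHL1 (rho = -0.824), and its part in the list values was not tested. In A375 with CDK4/6i, 4 of 22 genes for H2A.Z deposition and removal were down-regulated and 1 up-regulated at 72 hours, and 9 and 3 at 6 days. ANP32E, the chaperone that removes H2A.Z, fell from 186 ± 32.8 to 72.2 ± 1.44 CPM at 72 hours (-1.42 ± 0.22, edgeR adjusted p = 0.000623) and from 447 ± 155 to 73.5 ± 10.5 CPM at 6 days (-2.60 ± 0.23, adjusted p = 2.81e-06). YEATS4, a subunit shared by the H2A.Z depositing complexes, fell by 0.88 and 1.85 on the log2 scale (-0.88 ± 0.21 and -1.85 ± 0.21), and ZNHIT1 of the SRCAP complex rose by 0.67 ± 0.21 and 1.05 ± 0.21. In CHL1 at 72 hours edgeR and DESeq2 each called 0 of the 22, with 2 at an unadjusted p below 0.05, and INO80 (-0.79 ± 0.16) and ACTL6A (-0.57 ± 0.18) were lower at 6 days. PRMT5i in CHL1 had 9 of the 22 higher (26.4% of all genes) and 11 lower (27.6%), in the comparison with the strong GC trend.

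Of the 6 H3.3 deposition genes in the table, edgeR and DESeq2 each called 0 in either line after 72-hour CDK4/6i and 0 in A375 with PRMT5i, and 0 had an unadjusted p below 0.05 there. At 6 days in A375, also a comparison with a GC trend, UBN1 (0.64 ± 0.17) and CABIN1 (0.60 ± 0.18) rose. ATRX (-1.08 ± 0.23) and UBN2 (-0.52 ± 0.19) fell there. PRMT5i in CHL1 moved ATRX by 1.46 ± 0.18 and DAXX by -1.05 ± 0.19, opposite directions for partners in the same complex, again in the comparison with the GC trend. The list medians were 0.00 at 72 hours and 0.09 at 6 days of CDK4/6i in A375.

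Replication-coupled chaperones, which serve the S-phase histones, had 7 of 8 members lower at 72 hours in A375 and 4 of 8 at 6 days, and 3 of 8 at both times in CHL1. MMS22L fell by 1.87 on the log2 scale at 72 hours in A375 (-1.87 ± 0.19) and CHAF1A was at -0.75 ± 0.16 at 72 hours in CHL1. The 67 replication-dependent histone genes were taken by symbol, with any pseudogenes kept. Of these, 58 were lower in A375 at both times of CDK4/6i, and 49 and 51 in CHL1 at 72 hours and 6 days. Under PRMT5i 59 were lower in CHL1 and 23 in A375. HIST1H1PS1 was higher at both times of CDK4/6i in CHL1 (2.06 ± 0.42 and 1.51 ± 0.44), and HIST2H2BB at 72 hours in A375 (0.80 ± 0.25). The level of HIST1H1PS1 was low, at 0.386 ± 0.156 CPM (SD) in CHL1 controls and 1.62 ± 0.501 at 72 hours of CDK4/6i. The median log2 fold change of the 67 was -2.12 and -1.65 in A375, set beside -0.74 and -0.86 for the replacement variants, with no test of the difference. The libraries were made from poly(A) RNA, and most replication-dependent histone transcripts lack a poly(A) tail. Counts of the 67 therefore rest on whatever part of their RNA was captured, an unlike measure to that of the variants. CENPA, the centromeric H3, fell in 5 of the 6 comparisons, by 0.56 to 1.49 on the log2 scale (from -1.49 ± 0.19 at 72 hours of CDK4/6i in A375 to -0.56 ± 0.17 at 6 days in CHL1), and was not called under PRMT5i in CHL1. Proliferation markers were lower in 9 of 9 genes at 72 hours and 7 of 9 at 6 days in A375, and in 5 and 6 of 9 in CHL1, while PRMT5i lowered 5 of 9 in A375. Under PRMT5i in CHL1 they went both ways, 2 higher (CDK1 at 1.58 ± 0.21 and CCNA2 at 0.78 ± 0.19) and 2 lower (MCM2 at -1.17 ± 0.19 among them). The part of these markers in the results was not tested.

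Of 12 H2A.X signalling genes, CDK4/6i in A375 lowered 3 at 72 hours (7.11% of all genes were lower) and 3 at 6 days (21.3%), while PPP4C was higher at 6 days (0.69 ± 0.22, edgeR adjusted p = 0.0182). At 72 hours BRCA1 was at -1.26 ± 0.17 and MDC1, the protein that binds phosphorylated H2A.X, at -1.02 ± 0.22. In CHL1 at 72 hours edgeR and DESeq2 each called 0 of 12, with 3 at an unadjusted p below 0.05, and at 6 days edgeR called 1, BRCA1 (-0.63 ± 0.16), and DESeq2 called 5. Of 7 general chaperones, CDK4/6i lowered 1 at 72 hours and 2 at 6 days in CHL1, among them SSRP1 of the FACT complex at both times (-0.82 ± 0.17 and -0.98 ± 0.17). In A375 SUPT6H was higher at 72 hours (0.67 ± 0.21) and 6 days (0.93 ± 0.21), SET was lower at both times (-0.68 ± 0.20 and -0.72 ± 0.20) and NAP1L1 was lower at 6 days (-1.03 ± 0.22). Under PRMT5i in CHL1 2 of the 7 were higher, NAP1L1 among them (1.36 ± 0.18), and 2 lower.

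Across the 18 libraries, centred on each line's mean, 6 of the 10 members formed 2 sets with like patterns (Pearson's r of log2 of CPM plus 1, a description over libraries that share line, set and depth). H2AFY, H2AFY2, H2AFJ and H3F3A belonged to neither. H2AFX, H1F0 and H1FX had r of 0.918 to 0.952 with one another, and H2AFZ, H2AFV and H3F3B had r of 0.875 to 0.932, whereas H2AFX and H2AFZ had 0.305. Out of 10552 genes averaging 10 CPM or more, the most like gene was HIST3H2A for H2AFX (r = 0.986), TK1 for H1F0 (0.969), SCD for H1FX (0.95), BUB1 for H2AFZ (0.962), ANLN for H2AFV (0.983) and KHDRBS1 for H3F3B (0.983). H3F3A was most like PNRC2 (0.953), H2AFY like NUDT5 (0.89), H2AFJ like CCDC115 (0.876) and H2AFY2 like SEMA3C (0.814). The GC trend of the libraries moved with these patterns, with r of -0.861 for H3F3A, -0.708 for H2AFV and 0.515 for H2AFX.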

How the data were processed

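Poly(A) RNA of 18 libraries (9 groups of 2, from the labels) was sequenced as paired 150-base reads. Per the labels and the study's methods the authors aligned reads to GRCh37 with HISAT2 2.0.4 and counted them per gene with HTSeq (0.11.2 in the submitters' processing notes). The deposited values are named as normalised by edgeR, but are whole numbers for 20705 genes, with totals of 16213475 to 37424081. They were taken as unnormalized counts. Strandedness is not given in the sources used here. Counts were tested here with edgeR 4.0.16 (R 4.3.3) by the quasi-likelihood test with TMM scaling, all libraries of a line in a single fit and all 18 for differences between lines, with Benjamini-Hochberg adjustment over all genes and a call at an adjusted p below 0.05. No filter on low counts was used. Alternatives included a filter at 1 CPM in 2 libraries, scaling by median of ratios, DESeq2 1.42.0, a GC correction (loess span 0.4), a replicate block, other library sets and leaving out each library. The tests were checked on simulated counts with a smaller spread than these libraries and no GC trend. That check does not cover the spread or the GC trend of the real data. All 10 members were named, and from each list at most the 2 called genes of lowest adjusted p in each direction. The rule for the members uses names only, and the members and lists were chosen with earlier results of these data known. Pseudogene copies of the members were not analysed here.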

Additional observations from a re-analysis of the deposited data

Results flagged for a closer look

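In 11 cases a direct test of the difference between responses passed an adjusted p of 0.05 in edgeR. H1FX fell further at 6 days than at 72 hours of CDK4/6i in A375 (difference of log2 fold changes -1.99 ± 0.42, SE, adjusted p = 0.0343). For 72-hour PRMT5i, A375 minus CHL1, the differences were 1.01 for H2AFX, 1.53 for H2AFJ, 0.73 for H1F0, -0.93 for H2AFZ, -1.24 for H2AFV and -0.79 for H3F3B. That of H2AFV was called without any 1 of the 18 libraries and with the GC correction. The other 5 were lost with the GC correction and, among others, without CHL1 PRMT5i replicate 1, where they were 0.62 for H2AFX, 1.72 for H2AFJ, 0.58 for H1F0, -0.60 for H2AFZ and -0.52 for H3F3B. For 6-day CDK4/6i, A375 minus CHL1, the differences were -2.80 for H1FX, -1.84 for H2AFY2, -0.88 for H2AFV and 0.75 for H2AFY. The first 2 of these were called without any 1 of the 18 libraries. H2AFV was lost without A375 6-day control replicate 1 (-0.65, adjusted p = 0.0838) and 3 other libraries, and H2AFY with the GC correction (0.40, adjusted p = 0.0892) and without 6 libraries in turn. Cell line, medium and, at 72 hours, library set cannot be told apart in these differences. In the 6-day differences between lines the time of the control cannot be told apart either. CHL1 had a 72-hour control there and A375 its own 6-day control, which carried the GC trend.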

How the results depend on the processing

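Counts of called members were within 1.5 times the reported count in 80 of 96 alternatives and in 128 of 162 fits that left out 1 library. The counts with the GC correction are given with the share of all genes it called. The correction gave 2 members for CDK4/6i at 72 hours in CHL1 (14.3%, 0 reported) and 2 for PRMT5i in CHL1 (28.5%, 5 reported). For PRMT5i in A375 it gave 4 (8.69%, 0 reported). PRMT5i against CDK4/6i had 4 in CHL1 (41.5%, 7 reported) and 3 in A375 (15.7%, 0 reported). For the line differences the correction gave 1 under 72-hour CDK4/6i (3.08%, 0 reported) and 1 under PRMT5i (20.5%, 6 reported). It also turned the sign of H1FX for PRMT5i in CHL1 (0.18), of H2AFX (0.61), H3F3A (-0.089) and H1FX (1.06) for PRMT5i against CDK4/6i in CHL1, and of H2AFX for the line difference under PRMT5i (-0.55). A threshold of 1 on the absolute log2 fold change left 1 and 3 members in CHL1 at 6 days of CDK4/6i and under PRMT5i, and 2 and 3 in A375 at 72 hours and 6 days of CDK4/6i. The share of all genes left by that threshold is not given here. With only the compared groups 7 members were called for CDK4/6i at 72 hours in CHL1 (20.3% of all genes) and 3 for PRMT5i in A375 (8.99%), and with the 6 A375 libraries of 72 hours alone and no block 4 for PRMT5i (15.8%). DESeq2 called 1 member, H1F0, for PRMT5i against CDK4/6i in A375.

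Without 1 library, the counts ranged from 0 to 2, 0 to 4 and 3 to 7 for CDK4/6i at 72 hours, CDK4/6i at 6 days and PRMT5i in CHL1, and from 1 to 6, 5 to 8 and 0 to 4 in A375. They ranged from 4 to 7 for PRMT5i against CDK4/6i in CHL1 and 0 to 1 in A375, 0 to 0 for 6 days against 72 hours in CHL1, 0 to 3 for the response at 6 days minus 72 hours in A375, and 5 to 9 for the controls of the lines. For the line differences they ranged from 0 to 0 under 72-hour CDK4/6i, 1 to 7 under PRMT5i and 2 to 5 under 6-day CDK4/6i. Of 21 calls against a control 9 held without any 1 library, and none changed sign. Where a group is left with 1 library, that library is assumed to vary like the others. The share of all genes called without 1 library is not given here.

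The replicate numbers were shared by 2 replicates only, and the correlation of replicate differences between groups ran from -0.234 to 0.269 in CHL1 and 0.104 to 0.353 in A375 at 72 hours, and 2 replicates are too few for these values to show pairing, so the numbers were not taken to pair samples. A replicate block gave 0, 2 and 6 members for CDK4/6i at 72 hours, at 6 days and PRMT5i in CHL1 (3.84%, 15.3% and 53.9% of all genes called). In A375 at 72 hours it gave 9 and 7 for CDK4/6i and PRMT5i (42.3% and 29.5% of all genes called). The A375 libraries of 6 days carry no replicate number. Adding reads of pseudogenes to the paralog shares was not run, since pseudogene copies of the members were not analysed here. Depth limits H2AFJ and H2AFY2 in CHL1 most.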
